A study of Drosophila melanogaster with 8 samples.

Results

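The genes described here are 117 of the 14256 genes in the count table of *Drosophila* testes (0.821%), chosen because their counts were much higher in *Tj>E(Pc) shRNA* testes than in *Tj-Gal4* control testes. A gene entered the set when it held at least 20 counts in both *Tj>E(Pc) shRNA* libraries and when its lowest CPM there (the count scaled to the column total) was at least 3 times its highest CPM in the *Tj-Gal4* libraries. These CPM values chose the genes, so the difference between genotypes is given as a description and carries no test. Whole testes were taken from adult males aged 5 days, 1 pair per library, and each genotype had 2 libraries. The control males had the strain label *Tj-Gal4*, and the knockdown males the label *Tj-Gal4/+; UAS-E(Pc) shRNA/+*, so both carried the driver and the knockdown males also carried a hairpin transgene against *E(Pc)*. The driver acts in the somatic cells of the gonad, that is the hub and the cyst lineage, and not in the germ line. The control carries no UAS transgene and its driver is not written over a wild-type chromosome, so the knockdown and other differences between the strains cannot be told apart. The 4 ChIP-seq samples of the series are not analysed here.

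The testis tip holds germline stem cells and somatic cyst stem cells around the hub. Germ cells divide as spermatogonia inside an envelope of cyst cells, replicate their DNA once more, grow as spermatocytes and then pass through meiosis to become spermatids. Enhancer of Polycomb, encoded by *E(Pc)*, is a subunit of the Tip60 histone acetyltransferase complex. RNA of whole testes mixes all of these cells, so more cells of a type and more RNA per cell cannot be told apart in any value below.

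The libraries held between 3307767 and 6251181 counts, a range of 1.89-fold, with the largest total in *Tj>E(Pc) shRNA* replicate 1. *E(Pc)* itself held 258.2 and 277.7 CPM in *Tj-Gal4* and 429.5 and 334.6 CPM in *Tj>E(Pc) shRNA* (edgeR log2 fold change 0.44 ± 0.18 SE, adjusted p = 0.083). Both labelled knockdown libraries thus lay above both controls, so the targeted mRNA does not check the labels in whole testes. Every direction below rests on the labels of these libraries.

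Of the 9963 genes with at least 20 counts in both *Tj>E(Pc) shRNA* libraries, 1.17% entered the set. The same rule with the genotypes exchanged gave 36 genes of 9783. The ratio of the genotype means had a median of 4.38 over the members and a minimum of 3.12. The gap the rule measures, from the lowest *Tj>E(Pc) shRNA* CPM to the highest *Tj-Gal4* CPM, lay between 3 and 4 for 72 members, between 4 and 5 for 17, between 5 and 10 for 19 and at 10 or above for 9, with controls under 3 counts set to 3 counts. Most members therefore sat near the threshold, 59 of them at a gap below 3.5.

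The values around the threshold were close to each other. *Cdc6*, whose protein loads the replicative helicase, had a gap of 3.003, and the splicing factor gene *Srp54* had one of 3.01. *CG10445*, *msl-1* and *Hpd* followed at 3.01, 3.02 and 3.02. The nearest genes outside the set were *GstZ2* at 2.998, *Drep2* at 2.98, *mahj* at 2.97, *Polr1B* at 2.95 and *mei-9* at 2.94. *Tj-Gal4* replicate 2 and *Tj>E(Pc) shRNA* replicate 2 bounded the set most often. Without the former 282 genes met the rule, and without the latter 266. Leaving out a library can only loosen the rule, so all 117 members stay in the set by construction.

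edgeR's quasi-likelihood test, run over 11163 genes as a background, called 22.5% of all genes higher in *Tj>E(Pc) shRNA* at an adjusted p under 0.05. All 117 members were tested and called higher, which restates the choice of the genes and is read no further. The number of genes called higher fell from 2517 to 1219 without *Tj-Gal4* replicate 1 and to 1676 without *Tj-Gal4* replicate 2, and DESeq2 called 1453.

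Levels of the members in *Tj>E(Pc) shRNA* ran from 4.76 to 210.9 CPM on average, with a median of 27.3, whereas in *Tj-Gal4* the median was 4.46 CPM and the highest mean 55.2. In 15 members the *Tj>E(Pc) shRNA* mean reached 100 CPM, and in 18 it stayed below 10. Only 48 members held at least 20 counts in both controls as well. The plot of CPM by library shows the 30 members with the largest gaps.

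**Figure D1:**
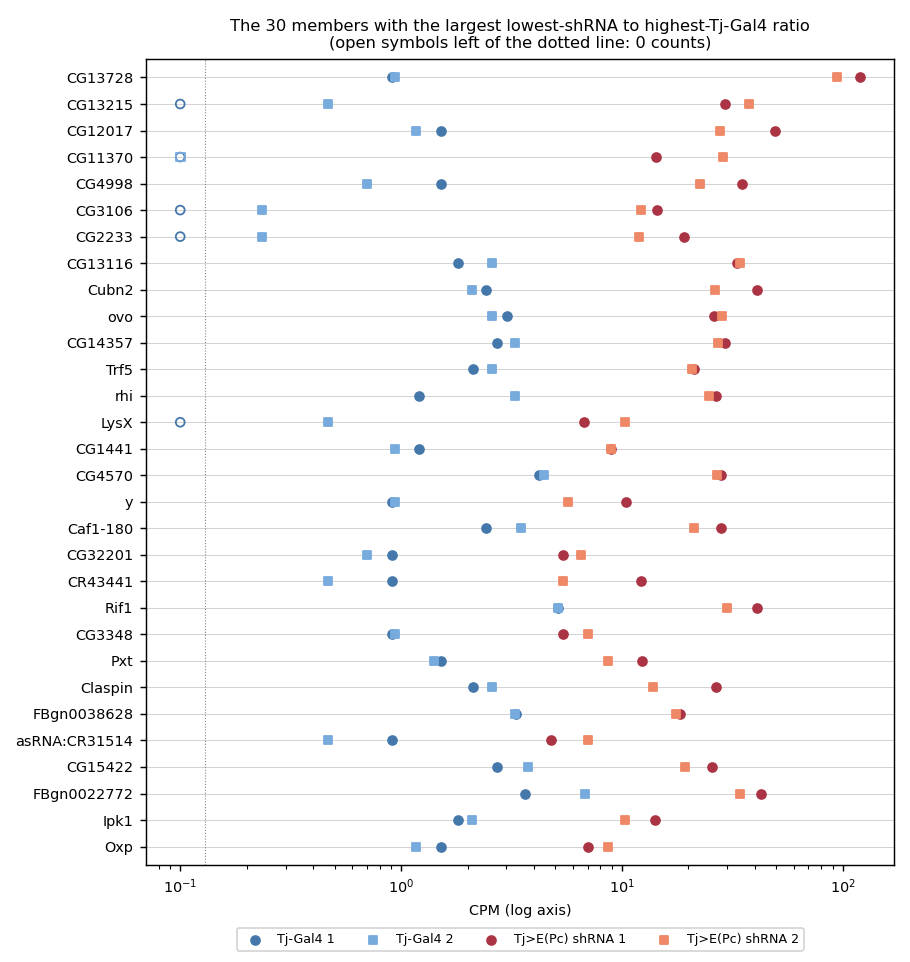
CPM of the 30 members with the largest gap between genotypes, on a log axis, with 1 point for each of the 4 libraries (blue, *Tj-Gal4*; red and orange, *Tj>E(Pc) shRNA*) and open symbols for 0 counts. *CG13728* stands apart with 94.3 and 120.3 CPM in *Tj>E(Pc) shRNA* against 0.907 and 0.936 in the controls, while the genes at the foot, such as *Oxp*, are separated by a gap of 4.66.

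The genes with the widest gaps were almost silent in control testes. Of the 9 members with a gap of 10 or more, 8 are known by a CG number alone, and the other is *Cubn2*, a gene of a cubilin-type receptor for protein uptake. *CG13728* on chromosome 3L held 3 and 4 counts in *Tj-Gal4* against 752 and 348, or 0.921 ± 0.0205 and 107.3 ± 18.4 CPM (SD, n = 2 each), a ratio of means of 116.4. The other 8 genes with a gap of 10 or more had means of 13.3 to 38.6 CPM in *Tj>E(Pc) shRNA*.

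*CG11370*, also on 3L, had 0 counts in both controls, whereas the *Tj>E(Pc) shRNA* libraries held 89 and 106. Set against a floor of 3 counts in the shallower control library (0.907 CPM), its mean was at least 23.7-fold higher. A further 5 members held only 1 to 3 control counts in all, so their ratios are given on summed counts with an exact 95% interval that covers counting error only. The ratio was 122.8 for *CG13215* (33.7 to 1018), 102.9 for *CG3106* (18.2 to 4096) and 124.3 for *CG2233* (22.0 to 4939). It was 30.5 for the lysozyme gene *LysX* (8.17 to 256.2) and 11.4 for the cuticle gene *Vajk1* (3.67 to 57.5). With so few control counts the size of these folds is loosely fixed.

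*CG12017* had 1.51 and 1.17 CPM in *Tj-Gal4* against 49.3 and 27.9, and *CG4998* had 1.51 and 0.702 CPM against 34.9 and 22.5. *CG13116* had 1.81 and 2.57 CPM in the controls and 33.3 and 34.1 CPM after knockdown. In this gene the *Tj>E(Pc) shRNA* libraries were almost equal, while in *CG12017* replicate 1 was well above replicate 2. *Cubn2* had 2.42 and 2.11 CPM against 41.0 and 26.5. No role is given for the CG-numbered genes, since neither the files nor the symbol tables annotate one.

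Several CG-numbered or little-known genes came next by gap, among genes described by role below. *CG14357* had 2.72 and 3.28 CPM in *Tj-Gal4* against 29.3 and 27.4, and *Trf5* had 2.12 and 2.57 against 21.3 and 20.9. *CG1441* had 1.21 and 0.936 CPM against 8.96 and 8.94. In these 3 genes the *Tj>E(Pc) shRNA* libraries were nearly equal, at ratios of means of 9.44, 8.98 and 8.34. *CG4570* had 4.23 and 4.45 CPM against 28.0 and 27.1, while the neighbours *CG32201* and *CG18231* on 3L had ratios of 7.42 and 4.71 from 24 to 44 counts a library after knockdown. *CG12239* on the X chromosome was uneven in both genotypes, with 0.907 and 3.28 CPM against 14.7 and 29.0.

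Other CG-numbered members were abundant rather than widely separated. *CG8545* had 29.3 and 30.9 CPM against 117.9 and 105.1. *CG13185*, the longest member at 16953 bases, had 52.0 and 51.9 CPM against 214.5 and 165.2. *CG17177* had controls further apart, at 18.1 and 32.1 CPM, against 111.3 and 109.7. *Kots*, a named gene without a role group, had 27.2 and 22.5 CPM against 115.5 and 121.1, a ratio of 4.76.

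For the description by function, 58 members with well-known products were placed in 8 groups after their values had been seen, so the groups order the text and support no test. In the remaining 59 members, 41 carry a CG number, 10 have no symbol in the tables used, and 8 are named but were given no group.

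**Figure D2:**
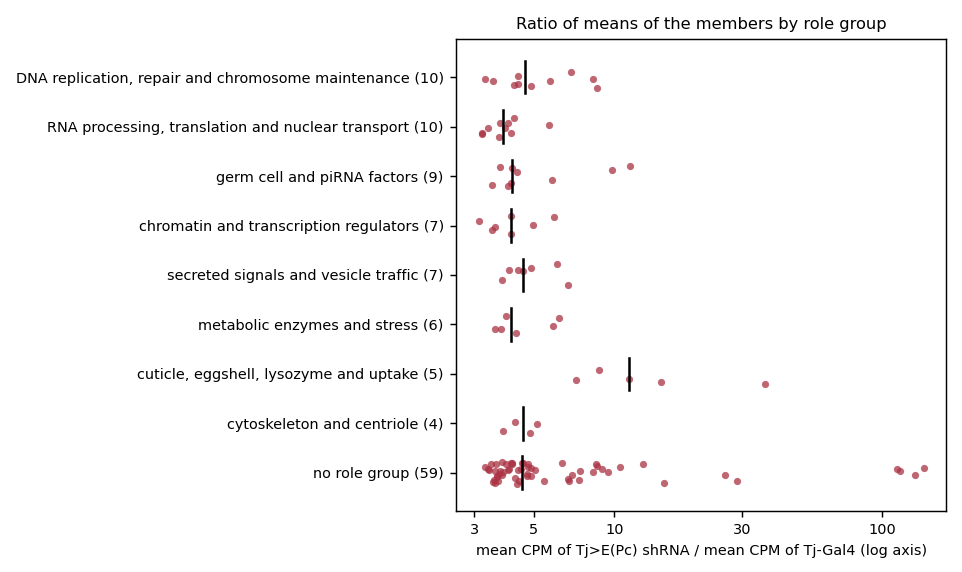
Ratio of mean CPM, *Tj>E(Pc) shRNA* over *Tj-Gal4*, on a log axis, with 1 point per member, members grouped by role (number in each group in parentheses) and the median of each group as a black bar; *CG11370*, with a control of 0, is not drawn. Group medians lie between 3.83 and 4.63 except for the 5 genes of cuticle, eggshell, lysozyme and uptake, at 11.4, and the ratios above 100 all belong to genes without a role group. The median of 11.4 is the ratio of *Vajk1*, with 2 and 1 control counts, and is not read as a difference between groups.

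Germ cell and piRNA factors made up 9 members. piRNAs are small RNAs that guide Piwi proteins to silence transposons in the gonad, and the nuclear proteins Rhino and Moonshiner are known for allowing transcription of piRNA source loci in the ovary. *rhi*, encoding Rhino of the HP1 family, held 1.21 and 3.28 CPM in *Tj-Gal4* and 26.6 and 24.9 CPM in *Tj>E(Pc) shRNA*, a ratio of means of 11.5. *moon*, encoding Moonshiner, had 3.33 and 2.11 CPM against 11.5 and 10.3, a ratio of 4.02. *Oxp*, another gene of the HP1 family, lies next to *rhi* on chromosome 2R and had 1.51 and 1.17 CPM against 7.04 and 8.67. Both genes lie within the span of *CG10936* in the RefSeq annotation, so some of their reads could be shared with an overlapping transcript.

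*ovo*, which encodes a zinc finger transcription factor of the germ line, was the most raised named gene of this kind next to *rhi*. It held 10 and 11 counts in *Tj-Gal4* against 164 and 105, or 2.80 ± 0.318 and 27.3 ± 1.56 CPM (SD, n = 2 each), a ratio of 9.77. *zpg*, the gap junction innexin that links germ cells to the soma, had 11.8 and 11.7 CPM against 51.4 and 50.7. Within each genotype its libraries lay closer together than those of any other member, and the ratio of means was 4.34.

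The other genes of the group had smaller ratios. *shu*, a cochaperone gene of piRNA biogenesis, rose from 9.07 and 10.5 CPM to 36.5 and 45.0 CPM, and the Tudor domain gene *SoYb* from 10.9 and 15.9 to 62.1 and 48.5. The mitochondrial piRNA factor gene *daed* had 6.05 and 7.72 CPM against 26.4 and 25.2. *Marf1*, an RNA regulator of the oocyte, was the most abundant of them at 29.3 and 33.9 CPM in *Tj-Gal4* and 115.8 and 105.4 in *Tj>E(Pc) shRNA*.

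The list of early germline genes drawn up for this tissue, with earlier results of these data known, held 12 genes found in the table. Of these, *ovo* and *zpg* were members. The calls on the list come from the same libraries that chose the members, so they are a description and no independent support. Among the other 10, all tested, 6 were called higher and 0 lower by edgeR, where it called 22.5% of all genes higher and 11.4% lower, and their median log2 fold change was 0.67 against 0.0017 over all genes tested. *bam*, the switch gene of spermatogonial differentiation, had 10.9 and 12.9 CPM against 35.7 and 41.7 (edgeR log2 fold change 1.62 ± 0.22 SE, adjusted p = 6.52e-04). The Piwi family gene *aub* had 49.6 and 51.7 CPM against 142.5 and 161.2 (edgeR log2 fold change 1.51 ± 0.15 SE, adjusted p = 1.62e-04). *spn-E*, *otu*, *AGO3* and *piwi* were also called higher, with log2 fold changes between 0.59 and 0.93.

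*mei-P26* stood at 441.4 and 431.7 CPM in *Tj-Gal4* and at 434.5 and 366.3 in *Tj>E(Pc) shRNA*, *bgcn* at 243.7 and 228.1 against 289.9 and 228.1, and neither was called, nor were *tut* and *tud*. The summed level of the list was 1282 to 1333 CPM in *Tj-Gal4* and 1704 to 1881 CPM in *Tj>E(Pc) shRNA*. The part of this shift in the values of the germline members was not tested. Without *Tj-Gal4* replicate 1, and with DESeq2, 4 of the 10 were called.

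**Figure D3:**
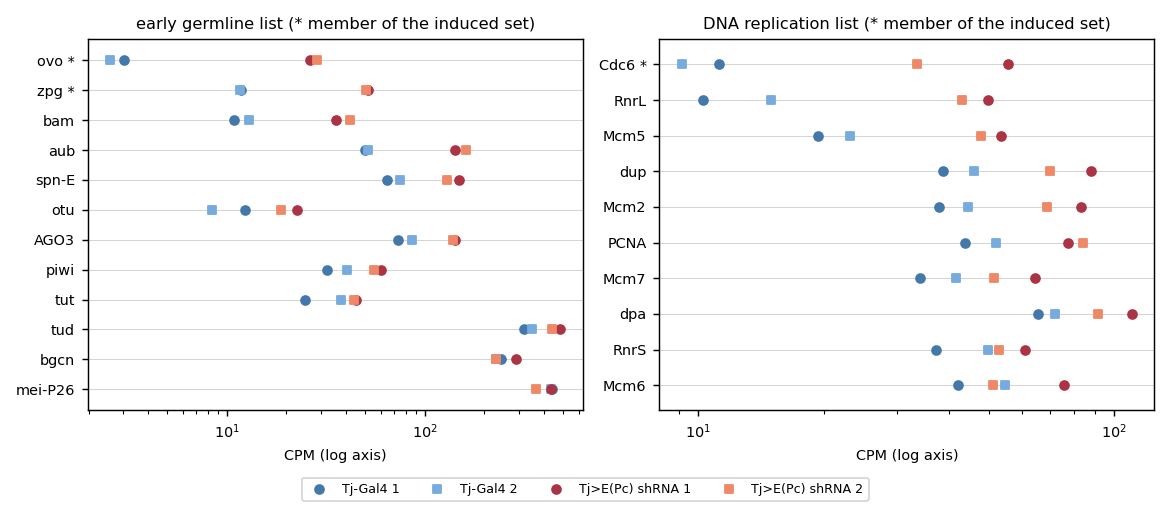
CPM of the early germline list (left) and the DNA replication list (right) on log axes, 1 point for each library, genes ordered by ratio of means and members of the induced set marked with an asterisk. All 4 libraries separate by genotype from *ovo* down to *tud* on the left, with *bgcn* and *mei-P26* overlapping, and from *Cdc6* down to *RnrS* on the right, with *Mcm6* overlapping.

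DNA replication, repair and chromosome maintenance accounted for 10 members. *PolA1*, the catalytic subunit of DNA polymerase alpha, held 13.6 and 13.3 CPM in *Tj-Gal4* and 62.5 and 51.2 CPM in *Tj>E(Pc) shRNA*, a ratio of 4.22. *Caf1-180*, the large subunit of the chromatin assembly factor that follows the fork, had 2.42 and 3.51 CPM against 28.2 and 21.1, a ratio of 8.31. *Claspin*, of the replication checkpoint, had 2.12 and 2.57 CPM against 26.7 and 13.8, and *Rif1*, a regulator of replication timing, had 5.14 and 5.15 against 40.8 and 30.1. In all 4 genes *Tj>E(Pc) shRNA* replicate 1 was above replicate 2, most of all in *Claspin*, where it was 1.93 times as high.

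*Cdc6* showed the same imbalance, with 11.2 and 9.13 CPM in *Tj-Gal4* and 55.5 and 33.6 CPM in *Tj>E(Pc) shRNA*. *Pif1*, a DNA helicase gene, had 3.02 and 5.15 CPM against 23.8 and 23.3, and the mismatch repair gene *spel1* had 21.8 and 24.6 against 79.2 and 83.7. *HipHop*, a telomere capping gene, had 12.4 CPM in both controls against 42.9 and 39.0. The cohesin loader gene *Mau2* had a ratio of 4.88. The checkpoint gene *Rad1* and its neighbour *Sws1* have the same length of 1524 bases and the same counts of 6, 10, 63 and 30 in the 4 libraries, so the pair counts as 1 measurement.

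Of the 9 tested genes of the DNA replication list that were no members, 7 were called higher and 0 lower, against 22.5% and 11.4% of all genes. Their median log2 fold change was 0.68. This list too was drawn up with earlier results of these data known, and its calls come from the same libraries, so they are a description. *RnrL*, the large subunit of ribonucleotide reductase, had 10.3 and 14.97 CPM against 49.8 and 43.1 (edgeR log2 fold change 1.79 ± 0.20 SE, adjusted p = 3.22e-04). The replicative helicase genes *Mcm2*, *Mcm5*, *Mcm7* and *dpa* had log2 fold changes from 0.48 to 1.17 and were called, as were *PCNA* and *dup*. *Mcm6* at 0.33 and *RnrS* at 0.32 were not. The summed level of the list was 340.1 to 407.4 CPM in *Tj-Gal4* and 594.1 to 718.7 in *Tj>E(Pc) shRNA*. Without *Tj-Gal4* replicate 1, 4 of the 9 were called, and DESeq2 called 5.

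Chromatin and transcription regulators contributed 7 members, and several were abundant. *mld*, a zinc finger gene needed for moulting, had 46.6 and 49.6 CPM against 170.2 and 174.5. *polybromo*, the subunit that distinguishes one form of the Brahma remodelling complex, had 31.1 ± 1.67 CPM in *Tj-Gal4* and 127.8 ± 17.9 CPM in *Tj>E(Pc) shRNA* (SD, n = 2 each), a ratio of 4.11. *pzg*, which encodes a partner of the NURF remodelling complex, had 41.4 and 41.9 CPM against 131.5 and 128.1, and its ratio of 3.12 was the smallest in the set.

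*msl-1*, a scaffold gene of the dosage compensation complex that acts on the male X chromosome, had 22.7 and 24.3 CPM against 90.9 and 73.4. The zinc finger genes *klu*, *hang* and *sqz*, known from the nervous system, had ratios of 5.93, 4.11 and 4.99. In *sqz* the *Tj>E(Pc) shRNA* libraries were far apart at 29.3 and 15.2 CPM, against 4.23 and 4.68 in the controls. None of the 7 is a subunit of the Tip60 complex.

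RNA processing, translation and nuclear transport held 10 members with the lowest group median, 3.83. The nuclear pore gene *Nup205* had 31.4 and 34.4 CPM against 135.8 and 110.3. *Srp54* had 23.6 and 25.04 CPM against 80.3 and 75.3. Both were expressed above 20 CPM in control testes. Others were the DEAD-box splicing gene *Prp5*, the mitochondrial synthetase genes *IleRS-m* and *Slimp*, and *Uhg2*, a non-coding host of small nucleolar RNAs that stayed below 6 CPM in every library.

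Secreted signals and vesicle traffic gave 7 members, most of them better known from nerve or endocrine cells. *Lst*, the peptide hormone limostatin, had 3.02 and 3.74 CPM in *Tj-Gal4* and 12.5 and 29.0 CPM in *Tj>E(Pc) shRNA*, the widest split between knockdown libraries among the members (replicate 1 over replicate 2, 0.430). The neuropeptide gene *CNMa* had 1.81 and 1.64 CPM against 7.84 and 7.86. *Cow*, a secreted carrier of Wingless, had 1.21 and 2.57 CPM against 9.60 and 15.7, and the vesicle calcium sensor gene *Syt4* had 12.4 and 12.6 against 59.8 and 41.7. *Mctp*, *X11Lbeta* and *Rab3-GEF* had ratios of 3.80, 4.87 and 4.36.

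Metabolic and stress genes were 6, led in level by the acetyl-CoA synthase gene *AcCoAS* with 10.6 and 12.9 CPM against 56.0 and 44.7. *Keap1*, a sensor of oxidative stress, had 5.44 and 6.32 CPM against 24.8 and 19.5. *Ipk1*, *Dgat2*, *Nadsyn* and *Hpd* had ratios between 3.59 and 6.22. In *Dgat2*, a triglyceride synthesis gene, the controls differed most, with 0.605 and 2.81 CPM.

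The 5 genes of cuticle, eggshell, lysozyme and uptake had the highest group median, 11.4, and their highest control mean was 2.26 CPM. That median is the ratio of *Vajk1*, with 2 and 1 control counts and an interval of 3.67 to 57.5 on summed counts. Genes with so few control counts meet the count minimum in *Tj>E(Pc) shRNA* only at large ratios. The high median is therefore not read as a difference from the other groups. Beside *Cubn2*, *LysX* and *Vajk1*, the group held *y*, the yellow pigment gene, and *Pxt*, a cyclooxygenase-like peroxidase gene of the ovary. *Pxt* had 1.51 and 1.404 CPM against 12.3 and 8.67. *y* had 3 and 4 counts in *Tj-Gal4* against 65 and 21. Mutations of *y* and *v* commonly mark laboratory stocks, and *v* was also called higher (edgeR log2 fold change 1.47 ± 0.47 SE, adjusted p = 0.0366) while the marker gene *ry* was called lower (edgeR log2 fold change -1.70 ± 0.22 SE, adjusted p = 5.25e-04). The alleles at these loci are not in the labels, so a stock difference at *y* and the knockdown cannot be told apart.

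Cytoskeleton and centriole genes were 4. The centriole gene *Cep164* had 22.1 and 21.8 CPM against 96.6 and 71.5, and the dynein docking gene *Ccdc114* had 4.23 and 4.21 against 22.7 and 18.2. The ratio was 5.13 for the myosin gene *Myo28B1* and 4.24 for *dah*, a gene of furrow formation in the embryo.

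By family, symbols placed few members together. *y* was the only member of the yellow family and *zpg* the only innexin. No member carried the symbol of a cytochrome P450 (39 eligible genes), glutathione S-transferase (24), heat shock (13), histone (4) or ribosomal gene (157). The same held for antimicrobial (5), Male-specific transcript (17), odorant receptor (5), gustatory receptor (7) and ionotropic receptor genes (12). No Turandot gene was eligible. Over all eligible genes 1.17% were members, so the absence of members from families of these sizes is not read as a result. CG-numbered genes were 35.0% of the members and 37.6% of the 9963 genes eligible for the set.

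The table types 114 members as mRNA and 3 as non-coding RNA, one of them *Uhg2*. *lncRNA:CR43451* had 3.33 and 10.8 CPM against 59.0 and 35.8 and, with 0.393 counts per base at its highest, was the most densely covered member. *asRNA:CR31514* had 0.907 and 0.468 CPM against 4.80 and 7.04, and it overlaps *CG12947* in the RefSeq annotation. *CR43441*, typed mRNA in the count table but a pseudogene in RefSeq, had 0.907 and 0.468 CPM against 12.2 and 5.42 and lies within the span of *Dhc1*. Reads of overlapping transcripts cannot be told apart in these counts.

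Of the members without a symbol, FBgn0034987 was the most abundant gene of the whole set, with 50.8 and 59.7 CPM in *Tj-Gal4* and 221.4 and 200.5 CPM in *Tj>E(Pc) shRNA*. On cRPKM, the deposited scale per kilobase, the highest means in *Tj>E(Pc) shRNA* were 49.1 for *CG13215*, 45.9 for *lncRNA:CR43451* and 39.7 for *CG13728*. The other 9 members without a symbol had ratios of means between 3.54 and 7.36, with FBgn0038633 and FBgn0262526 next in level at 144.9 and 139.5 CPM on average in *Tj>E(Pc) shRNA*. FBgn0034987 reached 26.8 cRPKM, since its transcript is 7169 bases long. The median cRPKM in *Tj>E(Pc) shRNA* was 11.5 over the members and 33.1 over the eligible genes.

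By tissue, the members were set against marker lists drawn up for the testis and for other organs, of which 150 genes were eligible for the set. The 25 lists matched 276 genes of the table, among them muscle, accessory gland, ejaculatory duct, fat body, midgut, Malpighian tubule, hemocyte, neuron, glia, photoreceptor, eggshell and immune genes. Of the members, 4 stood in a list, *ovo* and *zpg* as early germline genes, *Cdc6* for DNA replication and *y* as a stock marker. The other 22 lists held 0 members, which is not read as a result, since 1.17% of all eligible genes were members. The lists cover 1.51% of the eligible genes and 3.42% of the members.

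Marker levels of the cell types that surround or follow the early germ cells were as follows. Of 9 cyst lineage genes, 1 was called higher (*zfh1*) and 1 lower (*so*), with a summed level of 630.9 to 684.2 CPM in *Tj-Gal4* and 729.0 to 896.6 in *Tj>E(Pc) shRNA*. *zfh1* was not called with DESeq2 or without either *Tj-Gal4* library or *Tj>E(Pc) shRNA* replicate 1, where 0 of the 9 were called higher. Of 4 hub genes, 2 were called lower and 0 higher, against 11.4% of all genes called lower, and 1 was called lower without either *Tj-Gal4* library or with DESeq2. The spermatocyte program had 6 of 14 genes called higher, against 22.5% of all genes, and 1 without either *Tj-Gal4* library or with DESeq2. It summed to 1716 to 1804 CPM in *Tj-Gal4* and 1780 to 1865 in *Tj>E(Pc) shRNA*. The spermatid list had 1 of 10 called lower and summed to 1590 to 1898 CPM against 1127 to 1531. Single libraries decided that count, which was 10 without *Tj>E(Pc) shRNA* replicate 2 and 0 without *Tj>E(Pc) shRNA* replicate 1 or *Tj-Gal4* replicate 1. Hemocyte markers summed to 133.9 to 247.3 CPM in *Tj-Gal4* and 232.7 to 398.8 CPM in *Tj>E(Pc) shRNA*, and of the 6 tested *Pxn* alone was called higher and 0 lower, while 4 of 7 were called lower without *Tj>E(Pc) shRNA* replicate 1. Of the defining genes, *Hml* had 148 and 285 counts in *Tj-Gal4* against 715 and 149, and *He* had at most 2 counts in any library. The part of these levels in the values of the members was not tested.

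The listed developmental genes that Polycomb proteins silence in many tissues did not enter the set. With 1.17% of all eligible genes in the set, their absence is not read as a result. Of 14 tested genes of this list, 0 were called higher and 6 lower, against 22.5% and 11.4% of all genes, among them *en*, *abd-A*, *dac* and *ftz*, and the list's median log2 fold change was -0.72. Without *Tj-Gal4* replicate 1 or replicate 2, and with DESeq2, 3 were called lower.

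Length, coverage and position of the members are given as a description. Members were longer than the eligible genes, with a median of 2495 bases against 1880. Coverage is computed from the same counts that chose the members, so it is not independent of the rule. Their highest coverage in any library had a median of 0.0829 counts per base, against 0.242 over the eligible genes. Among eligible genes with controls above 0, members were 3.37% of those below 0.05 counts per base, 2.70% of those from 0.05 to 0.1, 1.91% of those from 0.1 to 0.2 and 0.378% of those from 0.2 to 0.4. Above 0.4 counts per base there were 0 members among 3037 genes, and the highest ratio of means was 3.20. In no eligible gene did a count exceed 0.965 per base. When each count was read as the number of occupied transcript positions and converted to reads on that assumption, 155 genes met the rule, 115 of them members. Whether the deposited counts were limited in this way is not stated in the sources used here.

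**Figure D4:**
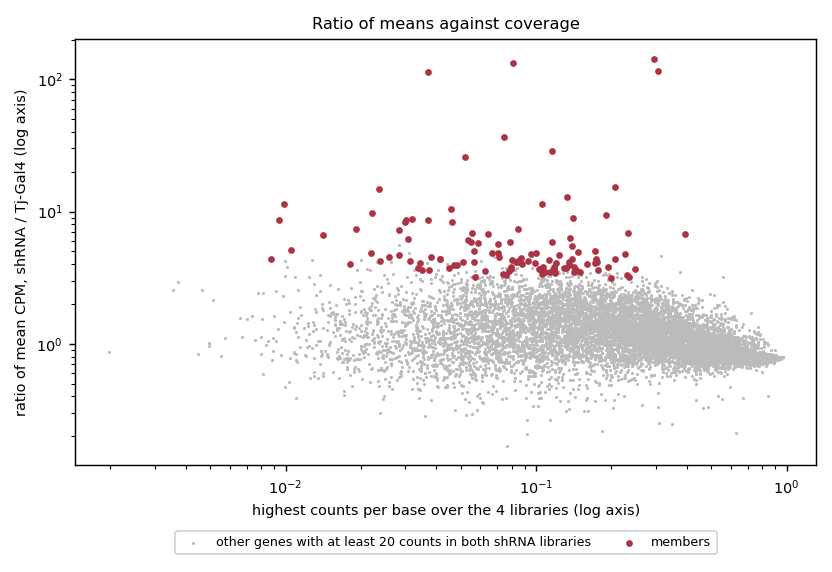
Ratio of mean CPM, *Tj>E(Pc) shRNA* over *Tj-Gal4*, against the highest counts per base in any library, both on log axes, for members (red) and the other genes with at least 20 counts in both *Tj>E(Pc) shRNA* libraries and a control above 0 (grey). The range of ratios narrows toward 1 count per base, and no member lies above 0.393 counts per base.

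Members came from all large chromosome arms. Chromosomes 2L and 2R held 18 each, 3L 25, 3R 31 and X 25, and the X share was 21.4% of the members against 16.2% of the eligible genes. Chromosome 4 had 68 eligible genes and 0 members, which is near the share of 1.17% over all eligible genes. Among 107 members placed in the RefSeq annotation, 4 pairs were immediate neighbours: *rhi* and *Oxp*, *Rad1* and *Sws1*, *CG18231* and *CG32201*, and *Mau2* and *CG6654*. Another gene overlapped 46.7% of the placed members and 51.8% of the placed eligible genes.

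Within *Tj>E(Pc) shRNA*, 101 members differed by less than 1.5-fold between the libraries. The rule uses the lower of these libraries, which favours genes where they agree, so the count is not read as a trait of the members. Replicate 1 was at least 1.5-fold above replicate 2 in 11 members and replicate 2 that far above replicate 1 in 5. Replicate 1 was the higher in 70.1% of members and in 64.0% of eligible genes, so the direction of the split was shared with the rest of the table. The ratio of the knockdown libraries had a median of 1.09 over the members and 1.08 over the eligible genes.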

How the data were processed

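RNA-seq of 4 whole-testis libraries was used. The authors aligned 50-nt single-end reads with Bowtie 0.12.7 to dm3, allowing 2 mismatches and 1 site, assigned them to merged exons of FlyBase genes, split reads over overlapping genes, and deposited raw counts. A second table deposited by the authors holds RPKM, here called cRPKM: pseudo-counts of edgeR over merged length and a common library size. Whether counting used strand is not stated. Total counts limit the precision of low genes, and intervals cover counting error only, as reads are not independent molecules.

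CPM was the count over the column total. The edgeR 4.0.16 quasi-likelihood test in R 4.3.3 used TMM factors, filterByExpr and Benjamini-Hochberg adjustment at 0.05, and was tested on simulated data. DESeq2 1.42.0 was an alternative, with other scalings, filters and folds, and each library left out. Each library is its own pair of testes, and no batch is labelled. Symbols matched 13564 of 14256 identifiers. Members and lists were chosen with earlier results of these data known. The naming rule took the 20 members with the largest gap, the 20 highest in cRPKM and in CPM, list and family members, the 5 genes on each side of the threshold and the most abundant other list genes. Other genes named, and the role groups, were chosen after their values were seen. Promoter sequence and lists of bound genes were not used here. Some members are not reported here by name.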

Additional observations from a re-analysis of the deposited data

How the results depend on the processing

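Over 16 other settings the set ranged from 10 to 595 genes. It held 336 genes with a count minimum of 1, 595 at 2-fold, 29 at 5-fold, 10 at 10-fold and 239 on the ratio of means. Leaving out a library gave 139 to 282 genes. TMM, upper-quartile and DESeq2 scaling gave 109, 97 and 95, sharing 107, 97 and 94 genes with the set, and cRPKM gave 103, sharing 102. Counts of genes called were 2517 higher and 1272 lower, and 1453 and 724 with DESeq2. Leaving out a library gave 1219 to 3288 higher and 447 to 2652 lower. With occupied positions converted to reads, 2232 were lower. The replicate block gave 2107 higher and 888 lower. Libraries share only a number, their deviations correlating at -0.253, and the crossed replicate block, chosen after seeing the data, called 3190 higher and 3014 lower. All 117 members were called higher under these scalings, blocks and DESeq2, which restates the choice of the genes and is read no further. The filter of 10 counts in every library left 72 members to test. The causes of the differences between settings were not tested. With 2 libraries a genotype, low controls limit how far a fold can be measured.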

Other observations

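Relaxing the rule to 2-fold raised the set from 117 to 595 of the 9963 eligible genes and brought in 10 further list genes, named after their values were seen, of the 150 list genes eligible. *H*, which encodes the Hairless repressor of Notch targets, had 68.0 and 68.3 CPM in *Tj-Gal4* and 177.9 and 171.2 CPM in *Tj>E(Pc) shRNA*. *gcl*, a gene of germ cell formation in the embryo, had 14.5 and 16.4 CPM against 37.4 and 37.9. *vn*, an EGF receptor ligand gene, had 2.42 and 4.21 CPM against 11.5 and 10.6. The others were *bam*, *aub*, *Mcm5* and *RnrL*, the hemocyte matrix gene *Pxn* (37.5 and 49.6 CPM against 190.0 and 145.2), the neuronal gene *Appl* (4.84 and 6.32 against 22.4 and 17.9) and the opsin gene *Rh6* (means of 2.72 and 12.3). The lists of the last 3 did not move as these genes did: edgeR called 1 of 6 tested hemocyte genes higher and 0 lower (median log2 fold change -0.28), 3 of 10 neuron genes higher and 3 lower (-0.36), and 2 of 9 photoreceptor genes higher and 2 lower (-0.27).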
